A study of Saccharomyces cerevisiae with 16 samples.

Results

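The early response of PHO84c yeast to a medium with 500 microM phosphate was set against that of wild-type (WT) yeast at 1, 5 and 8 h after the shift. The comparison used 3 PHO84c samples and 3 WT samples, 1 of each strain per time, and each value was taken as the change from the mean of the 2 Cy3 samples of its own strain at 0 h. These 10 samples are part of 16 in all, and the samples at 23 h and the Cy5 samples at 0 h stayed outside the main comparison. PHO84c is labelled as a strain with abundant high-affinity phosphate transporter. The labels give neither the promoter behind that abundance nor the strain background, the mating type or the number of clones. Both strains were cultured alike, from log phase in synthetic complete (SC) medium through a wash into SC medium with intermediate phosphate, and total RNA was read on Agilent dual-colour arrays. No probe was listed as PHO84, and a constant excess of PHO84 RNA would cancel in changes from each strain's own 0 h samples. The genotype could therefore not be checked against its own RNA.

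Budding yeast senses phosphate through the PHO pathway. When phosphate is plentiful, the cyclin Pho80 and the kinase Pho85 phosphorylate the transcription factor Pho4 and keep it out of the nucleus. When phosphate runs short, the inhibitor Pho81 silences that kinase, Pho4 enters the nucleus with its partner Pho2, and genes for phosphatases, phosphate transporters and polyphosphate synthesis are switched on. Pho84 is the main high-affinity transporter of the plasma membrane and is itself a target of Pho4. The series title names the question, whether abundant transporter delays the starvation response.

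The 6 samples at 1, 5 and 8 h held values for 6125 to 6231 of 6255 probes. Their spread over probes was 0.325 to 0.439 in PHO84c and 0.369 to 0.464 in WT (SD, log2 units). All values below are log2 changes from 0 h, and a strain difference is the PHO84c change minus the WT change. A constant difference between the strains, present already at 0 h, cannot appear in such values. Per the labels, all PHO84c arrays were read in one pair of scans and all WT arrays in another, with the same scan block for each time, so strain and scan cannot be told apart. Names were listed for 1608 probes in an old annotation of the array, and the pairing of probes with genes may be wrong. Genes of ribosomal proteins usually move together, but the 52 probes listed under them that had values in all 6 samples varied about as much as other probes. At 1 h they lay between -1.38 and 1.26 in PHO84c and between -1.77 and 0.93 in WT, with an SD of 0.44 in PHO84c and 0.48 in WT, against 0.44 in PHO84c and 0.47 in WT over all probes. For that reason a name below says what a probe is listed as, and a gene's known role stands beside it as background only.

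Over 1, 5 and 8 h, 29 of 6187 probes tested differed between the strains (0.469%), of which 10 were higher in PHO84c (0.162%) and 19 lower (0.307%). Probes 6951 and 12949, both among the 19, hold identical values, and with identical probes kept once 28 were called, 18 of them lower. A call needed an adjusted p under 0.05 in limma's test with time as a block and a difference of at least 2-fold, and the p alone was met by 42 probes (0.679%), 18 higher and 24 lower. Folds ran from 2.04 to 9.23 among the higher probes and from 2.04 to 7.65 among the lower ones. Of the 29, 6 carry a listed name: SIP3, GAS4, CCT7 and KCC4 were lower in PHO84c, and RRD2 and DCC1 were higher. The 10 Cy3 samples can also be fitted together, so that the spread of the 0 h pairs counts as error. In that fit 10 of 6014 probes passed (0.166%), all of them among the 29, 9 lower (0.15%) and 1 higher (0.0166%), and SIP3, GAS4, KCC4 and RRD2 were the listed ones. With the 0 h replicate number as a further block, 6 passed, 0 of them higher, and of the listed probes GAS4 alone was kept.

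**Figure D1:**
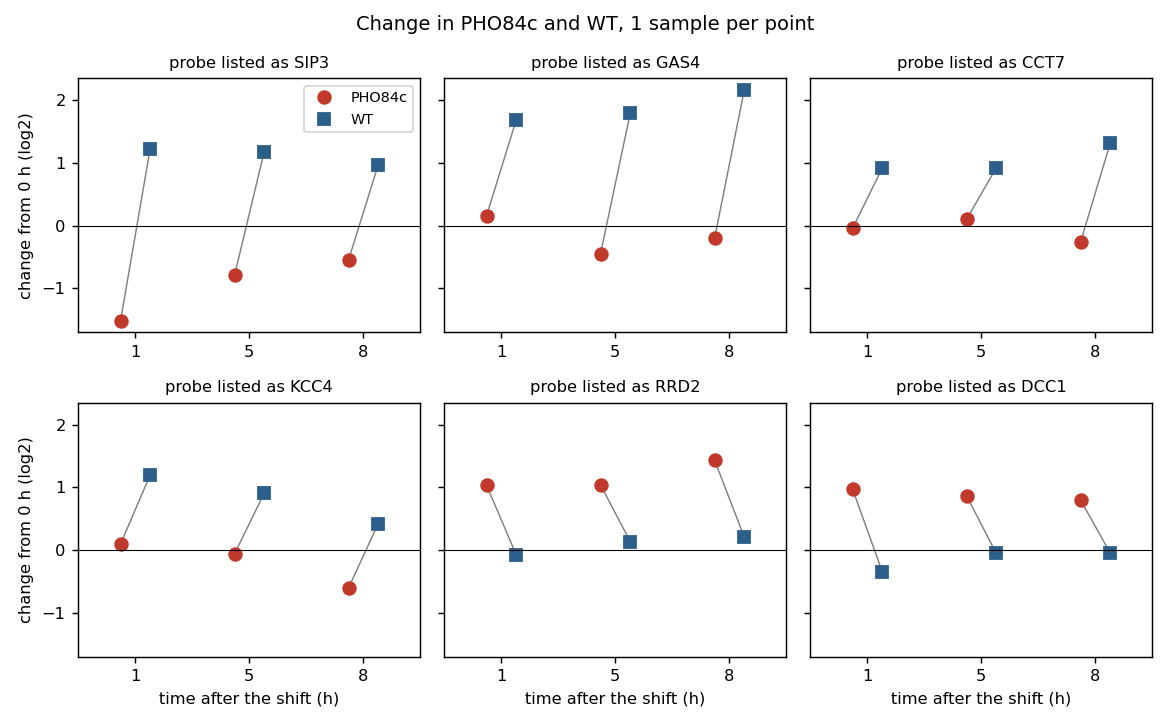
Change from 0 h (log2, vertical axis) at 1, 5 and 8 h (horizontal axis) for the 6 listed probes that differed between the strains, with 1 sample per point, circles for PHO84c and squares for WT. For SIP3, GAS4, CCT7 and KCC4 the PHO84c points lie below the WT points at each time, and for RRD2 and DCC1 they lie above them.

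The probe listed as SIP3, a protein found through its interaction with the kinase Snf1, stood at -1.51, -0.79 and -0.54 in PHO84c at 1, 5 and 8 h, against 1.23, 1.18 and 0.97 in WT. Every PHO84c sample lay below 0 and every WT sample above it, with no overlap. The difference was -2.07 ± 0.219 (SE, 3 time pairs, limma adjusted p = 0.0126), and it was largest at 1 h (-2.74) and smallest at 8 h (-1.51). With the 0 h samples and their replicate block in the fit it missed the threshold (adjusted p = 0.07).

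GAS4 names a glucanosyltransferase of the spore wall. Its probe gave 0.16, -0.44 and -0.20 in PHO84c, against 1.68, 1.79 and 2.16 in WT at 1, 5 and 8 h. The PHO84c samples stayed near 0 while all WT samples stood more than 3-fold above it. The strain difference of -2.04 ± 0.177 (SE, 3 time pairs, limma adjusted p = 0.00423) was present at 1 h (-1.52), 5 h (-2.23) and 8 h (-2.36). No other probe with a listed name was called under all 14 processing alternatives that kept the 2-fold limit.

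CCT7 encodes a subunit of the CCT chaperonin, which folds actin and tubulin. Values at the probe were -0.04, 0.10 and -0.26 in PHO84c, against 0.92, 0.92 and 1.31 in WT. The groups did not overlap, and again the WT samples moved while those of PHO84c stayed near 0. The difference was -1.12 ± 0.165 (SE, 3 time pairs, limma adjusted p = 0.0415), and with the 0 h error in the fit it missed the threshold (adjusted p = 0.128). It also missed it without any 1 of the pairs, at 1 h (limma adjusted p = 0.159), 5 h (0.0673) or 8 h (0.0616). The other listed members of the chaperonin did not pass: TCP1 differed by 0.08 and CCT6 by 0.30.

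KCC4, a kinase that sits with the septins at the bud neck, had a probe at 0.10, -0.06 and -0.59 in PHO84c, against 1.20, 0.91 and 0.43 in WT. In both strains the 8 h sample lay lowest and the 1 h sample highest, and the gap between them hardly varied (-1.10, -0.97 and -1.02). The mean difference was -1.03 ± 0.113 (SE, 3 time pairs, limma adjusted p = 0.0137). It missed the threshold without the pair at 1 h (limma adjusted p = 0.0939), without that at 5 h (0.0783), without the time block (0.107) and with the 0 h samples and their replicate block (0.0896).

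Among the higher probes, the one listed as RRD2, an activator of type 2A protein phosphatases, read 1.04, 1.04 and 1.43 in PHO84c, against -0.07, 0.14 and 0.21 in WT. Every PHO84c sample was at least 2-fold above 0 h, and every WT sample was close to it. The difference was 1.08 ± 0.122 (SE, 3 time pairs, limma adjusted p = 0.0147). It missed the threshold without the pair at 1 h (limma adjusted p = 0.0986), without that at 5 h (0.0548) and with the 0 h samples and their replicate block (0.105).

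The probe listed as DCC1, part of the clamp loader that helps hold sister chromatids together, had 0.98, 0.87 and 0.80 in PHO84c, against -0.34, -0.05 and -0.04 in WT. The groups did not overlap at any time. Its difference of 1.03 ± 0.136 (SE, 3 time pairs, limma adjusted p = 0.0291) was not called with the 0 h samples in the fit (adjusted p = 0.104), nor without the pair at 1 h (limma adjusted p = 0.0986) or at 5 h (0.107).

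The 23 called probes without a listed name include the largest differences. Probe 7071 stood at -2.62, -1.70 and -1.11 in PHO84c, against 1.29, 0.83 and 0.94 in WT, a difference of -2.83 ± 0.314 (SE, 3 time pairs, limma adjusted p = 0.0139). Like SIP3, it lay below 0 in every PHO84c sample and above 0 in every WT sample. It too missed the threshold with the 0 h samples and their replicate block in the fit (limma adjusted p = 0.0798). Probe 15377 ran the other way, with 1.37, 1.61 and 1.98 in PHO84c against -1.10, -2.46 and -1.10 in WT, and differed by 3.21 ± 0.271 (SE, 3 time pairs, limma adjusted p = 0.0041). Its WT samples at 0 h were 0.74 and -0.53, and with the 0 h samples in the fit it was not called (adjusted p = 0.0585).

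Further called differences rest on an uneven reference too. Probe 6436 read -0.15, 0.11 and 0.04 in PHO84c against 2.90, 3.04 and 2.86 in WT, but its WT samples at 0 h were 1.48 and -4.18. Probe 5186 read 1.76, 1.78 and 1.80 in PHO84c against -0.29, -0.26 and -0.33 in WT, and its PHO84c samples at 0 h were -3.48 and 0.90. In both, the samples of a strain agreed closely after the shift and disagreed before it. Of the 29 called probes, 8 had a Cy3 pair at 0 h more than 0.5 apart, with gaps of 0.787 to 5.66, compared with 107 of all probes tested (1.73%). None of the 8 has a listed name, 5 are higher and 3 lower in PHO84c, and none was called with the 0 h samples in the fit. The widest gap among the 10 probes called in that fit was 0.295.

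**Figure D2:**
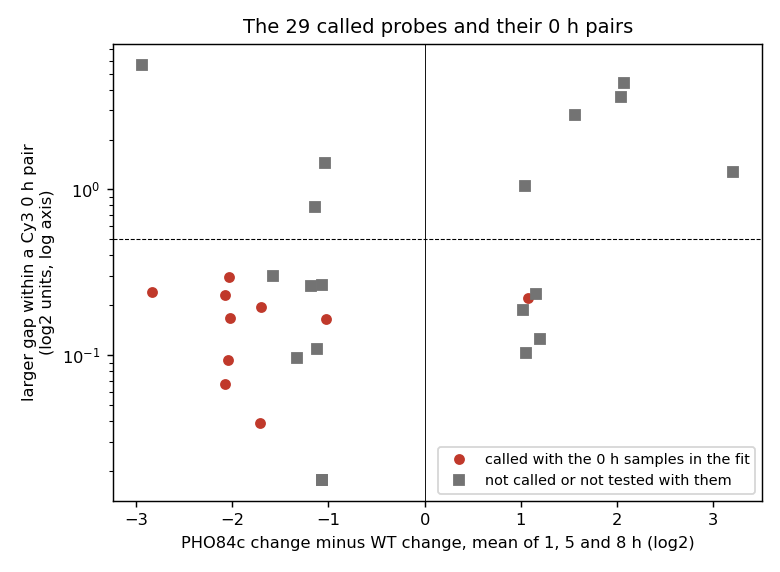
The 29 called probes by mean strain difference (log2, horizontal axis) and by the larger gap within a Cy3 pair at 0 h (log2 units, log axis), with marks for probes called or not called when the 0 h samples are in the fit. The dashed line is at 0.5, and all 8 probes above it belong to those not called with the 0 h samples.

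The called differences mostly came from opposite or one-sided changes. Of the 28 called probes with values at all 3 times, 21 had mean changes of opposite sign in the strains. A mean change of at least 2-fold was seen in PHO84c alone for 8 of the 28, in WT alone for 11, in both for 3 and in neither for 6. Among all 19 lower probes the WT mean was above 0. These counts describe probes chosen by the difference itself, and no test was made of them.

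**Figure D3:**
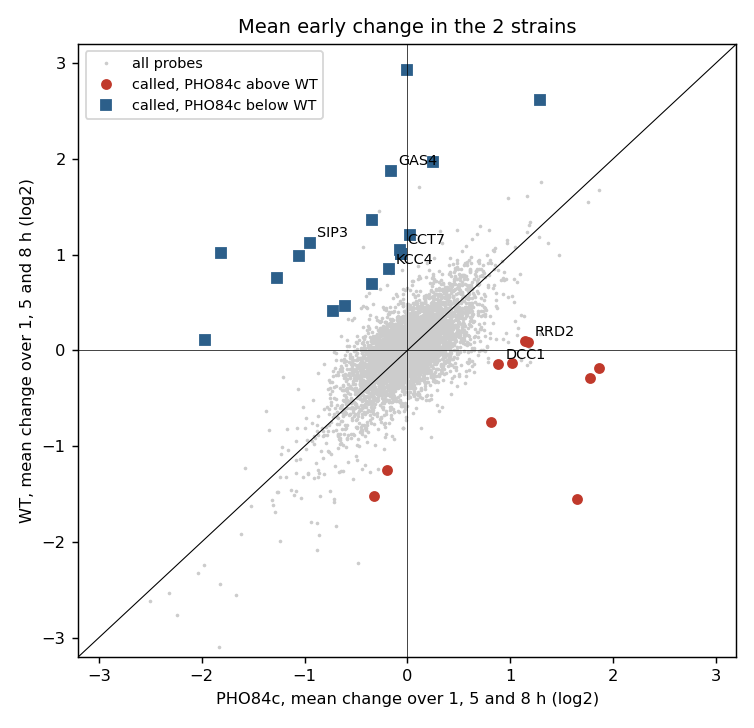
Mean change over 1, 5 and 8 h in PHO84c (horizontal axis, log2) and in WT (vertical axis, log2), with all probes in grey and the called probes that had values at all 3 times marked by direction. Called probes lie off the diagonal, and 21 of 28 have opposite signs in the strains.

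Smaller differences that kept their direction were counted over probes with all 3 pairs. A difference of at least 0.5 at each of the 3 times was found higher in PHO84c for 40 of 6014 probes (0.665%) and lower for 37 (0.615%), while 2641 (43.9%) kept one sign. The probe listed as CIT2, the peroxisomal citrate synthase that responds to mitochondrial dysfunction, had 1.04, 0.05 and -0.40 in PHO84c, against -0.74, -0.97 and -0.99 in WT. The strains did not overlap, the later PHO84c samples were the lower ones, and the difference of 1.13 ± 0.215 was not significant (SE, 3 time pairs, limma adjusted p = 0.0861). TFA2, the small subunit of the general transcription factor TFIIE, had -0.70, -1.30 and -0.62 in PHO84c against -2.89, -1.96 and -1.41 in WT. Both strains stood below 0 throughout and WT lower, with a difference of 1.21 ± 0.28 that did not pass (SE, 3 time pairs, limma adjusted p = 0.111).

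Other listed probes higher in PHO84c at each time were SSP120 at 0.89 and ERP3, a protein of the p24 family of vesicle cargo adaptors, at 0.77. Both had an adjusted p under 0.05 in limma's test (0.0434 for SSP120 and 0.0415 for ERP3), a limit that 0.679% of all probes met, and were under 2-fold. With the 0 h samples in the fit neither passed (limma adjusted p = 0.15 for SSP120 and 0.331 for ERP3), and the PHO84c samples of ERP3 at 0 h were 0.59 apart. ERP3 read 0.62, 0.43 and 0.44 in PHO84c, against -0.22, -0.30 and -0.29 in WT, so the strains moved to opposite sides of 0. NMD2, a factor of nonsense-mediated mRNA decay, differed by 0.69 and ZUO1, a ribosome-bound co-chaperone, by 0.62, and neither passed.

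On the lower side, the probe listed as ZDS2, a regulator of cell polarity and of the phosphatase PP2A, gave -0.0044, -0.07 and -0.10 in PHO84c, against 1.00, 0.97 and 0.54 in WT. PHO84c stayed at its 0 h level, and the difference of -0.90 ± 0.13 passed in limma's test (SE, 3 time pairs, adjusted p = 0.0411) but was under 2-fold, and it did not pass with the 0 h samples in the fit (adjusted p = 0.108). The 7 others named by the same rule had limma adjusted p-values of 0.0603 to 0.0773 and did not pass. They are RPS14B, a small-subunit ribosomal protein (-0.97), ALP1, a basic amino acid permease (-0.89), PUT2, an enzyme of proline breakdown (-0.86), SMC5, of the Smc5/6 genome-maintenance complex (-0.71), SNO1, of vitamin B6 synthesis (-0.70), IMD3, an IMP dehydrogenase (-0.70), and YMC1, a mitochondrial carrier (-0.67).

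Each time was then tested on its own. With 1 sample per strain and later time, the error came from the 0 h pairs, on the assumption that single later samples vary no more than those do. That spread is narrow, and no later sample was repeated, so a call at a single time has no replicate check and says which single samples stood apart from 0 h. For that reason differences at a single time are given below without an error or p. The strain difference was widest at 1 h, where its SD over probes was 0.444, against 0.348 at 5 h and 0.303 at 8 h. At 1 h, 161 of 6158 probes were called (2.61%), 125 higher in PHO84c (2.03%) and 36 lower (0.585%). At 5 h, 48 of 6138 were called (0.782%), 18 higher (0.293%) and 30 lower (0.489%). At 8 h, 52 of 6114 were called (0.851%), 24 higher (0.393%) and 28 lower (0.458%). Without the 2-fold limit, 11.2% of probes passed at 1 h, 0.929% at 5 h and 1.14% at 8 h. The 2-fold counts lean on the PHO84c samples at 0 h: without replicate 1 of them they were 55, 14 and 0 at 1, 5 and 8 h, and without replicate 2 they were 80, 11 and 2. Without either WT sample at 0 h the 5 h count was higher, at 80 without replicate 1 and 86 without replicate 2. The 3 times share their 0 h samples, so their calls are not independent.

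**Figure D4:**
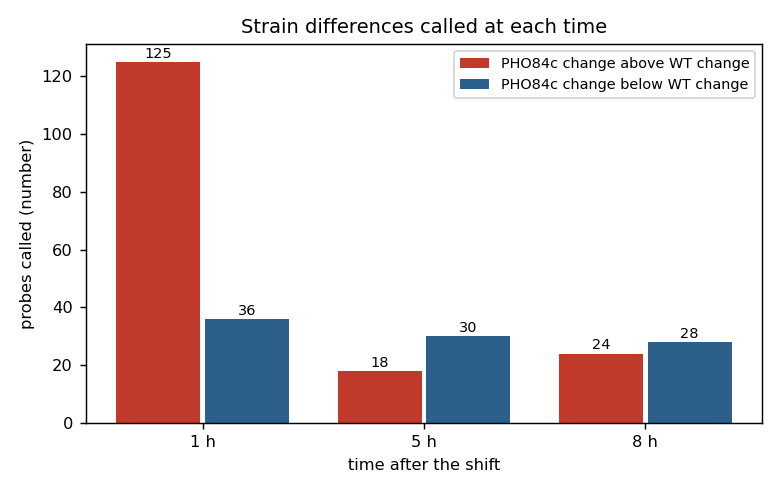
Number of probes called (vertical axis) at 1, 5 and 8 h with the PHO84c change above or below the WT change. At 1 h the bars are 125 above and 36 below, and at 5 and 8 h the bars lie between 18 and 30.

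The 125 probes called higher at 1 h had a median change of 0.65 in PHO84c and -0.60 in WT. A change of at least 2-fold was seen in PHO84c alone for 39 of them, in WT alone for 31, in both for 10 and in neither for 45. Their median difference was 1.23 at 1 h, 0.50 at 5 h and 0.19 at 8 h. The 36 probes called lower at 1 h had a median of -0.46 in PHO84c and 0.93 in WT, and their median difference was -1.22, -0.81 and -0.57 at 1, 5 and 8 h. Because these probes were picked at 1 h, a smaller value later follows in part from the choice.

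Among listed probes higher in PHO84c at 1 h, NAT2 differed most, with -0.05, -0.12 and 0.06 in PHO84c at 1, 5 and 8 h against -2.52, 0.07 and 0.02 in WT. A single WT sample, at 1 h, made this difference of 2.47, and over the 3 times the difference of 0.77 ± 0.463 did not pass (SE, 3 time pairs, limma adjusted p = 0.397). SYF1, a splicing factor, had the same form, with -0.41, -0.43 and -0.05 in PHO84c against -2.13, -0.11 and 0.18 in WT. FAA4, a fatty acyl-CoA synthetase, also differed most at 1 h, with -0.39, -0.30 and -0.64 in PHO84c against -2.08, -0.72 and -0.93 in WT. TFA2 and CIT2, given above, differed at 1 h by 2.18 and 1.78.

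Of the lower probes at 1 h, VPS25, a subunit of the endosomal sorting complex ESCRT-II, had -0.55, -0.46 and -0.28 in PHO84c against 1.49, 1.79 and -0.04 in WT. It was called at 1 h (-2.04) and at 5 h (-2.25), when the WT samples were high, and not at 8 h. ARO3, which starts aromatic amino acid synthesis, had -0.82, -0.22 and 0.23 in PHO84c against 0.39, -0.01 and 0.15 in WT, and was called at 1 h alone (-1.21). SIP3, GAS4 and KCC4 complete the 5 largest lower listed probes at that time.

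At 5 h the probes higher in PHO84c included MBP1, the DNA-binding subunit of the MBF factor of G1/S transcription, with 0.66, 1.95 and 0.59 in PHO84c against 0.74, 0.34 and -0.60 in WT. The strain difference at the MBP1 probe was 1.60 at 5 h and 1.19 at 8 h, so it was not confined to 5 h. The PHO84c sample at 5 h stood apart from the other 2 of its strain. UIP4 was likewise high in that sample alone, with 0.28, 1.60 and -0.02 in PHO84c against 0.00378, -0.03 and 0.00611 in WT. SNQ2, a multidrug pump, was called from a low WT sample at 5 h, with -0.51, -0.18 and -0.14 in PHO84c against 0.32, -1.20 and -0.11 in WT.

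The lower ones at 5 h included PAT1, an activator of mRNA decapping, with -0.41, -0.67 and 0.07 in PHO84c against -0.55, 1.54 and -0.55 in WT. GCD2, a subunit of the exchange factor eIF2B, had -0.32, -0.47 and -0.40 in PHO84c against 1.65 at 5 h and -0.20 at 8 h in WT, where it had no value at 1 h. In both, the WT sample at 5 h was the high one, and the differences there were -2.20 for PAT1 and -2.11 for GCD2.

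At 8 h several called probes were low in the WT sample alone. PKH2, a kinase of sphingolipid signalling, had 0.51, 0.14 and 0.04 in PHO84c against 0.03, -0.04 and -1.40 in WT. BET3, a subunit of the TRAPP tether, had -0.15, 0.11 and 0.01 in PHO84c against -0.23, -0.16 and -1.35 in WT. TOM70, a receptor of mitochondrial import, had -0.44, -0.15 and 0.08 in PHO84c against -0.11, -0.08 and -1.14 in WT. In each, the WT samples at 1 and 5 h were near 0. APG10 (also known as ATG10), needed for autophagosome formation, differed from these in being low in WT at 1 h too, with 0.20, 0.36 and 0.30 in PHO84c against -0.80, 0.05 and -0.95 in WT.

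Lower in PHO84c at 8 h were HPA3, an acetyltransferase, with -1.995, 0.85 and -0.59 in PHO84c against -2.19, 2.03 and 1.13 in WT, and RRM3, a DNA helicase that helps replication forks pass obstacles. The HPA3 probe was low at 1 h and above 0 at 5 h in both strains, and its strain difference was -1.18 at 5 h and -1.72 at 8 h. RRM3 had -0.79, -0.26 and -0.90 in PHO84c against -0.68, 0.48 and 0.65 in WT, so the strains lay closer at 1 h than later. Across the times, 8 probes were called at 1, 5 and 8 h alike, all of them lower in PHO84c, and SIP3 and GAS4 are the listed ones.

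Whether the difference at 1 h itself departed from that at 5 and 8 h was read in the same fit, again from single samples with the error of the 0 h pairs. The threshold was passed by 99 of 6012 probes (1.65%), with the difference at 1 h above the later ones for 76 (1.26%) and below them for 23 (0.383%), while 6.27% of probes passed without the 2-fold limit. The 76 had a median difference of 1.25 at 1 h, 0.13 at 5 h and -0.05 at 8 h. Since these probes were picked by that contrast, the gap between their medians follows from the choice and shows no fading by itself. NAT2 (2.55), SYF1 (2.00) and HPA3 (1.64) were the listed probes furthest above, and MBP1 (-1.48), SNQ2 (-1.33) and ARO3 (-1.15) those furthest below. The count was 5 without either PHO84c sample at 0 h, so it rests on the error that those samples give and not on repeated samples at 1 h.

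Probes listed under phosphate genes numbered 22, over lists of the PHO regulon, phosphate signalling, phosphate transport and polyphosphate. None of the 22 was called over 1, 5 and 8 h in limma's test, where 0.469% of all probes were. Adjusted p-values ran from 0.0977 to 0.983. Their differences lay between -0.91 and 0.47, 10 were positive and 12 negative, and the median was -0.11, against -0.007 over all probes tested. The same sign at all 3 times was seen for 10 of the 22, against 43.9% of all probes. The standard errors, 0.111 to 0.234, reflect the spread over the 3 times and leave out the error of the 0 h means. With the 0 h samples in the fit they were 0.168 for VTC4, 0.28 for PCL7 and 0.313 for PHO81, against 0.111, 0.206 and 0.234 without. So the smallest difference that could have been seen is larger than the first errors give.

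**Figure D5:**
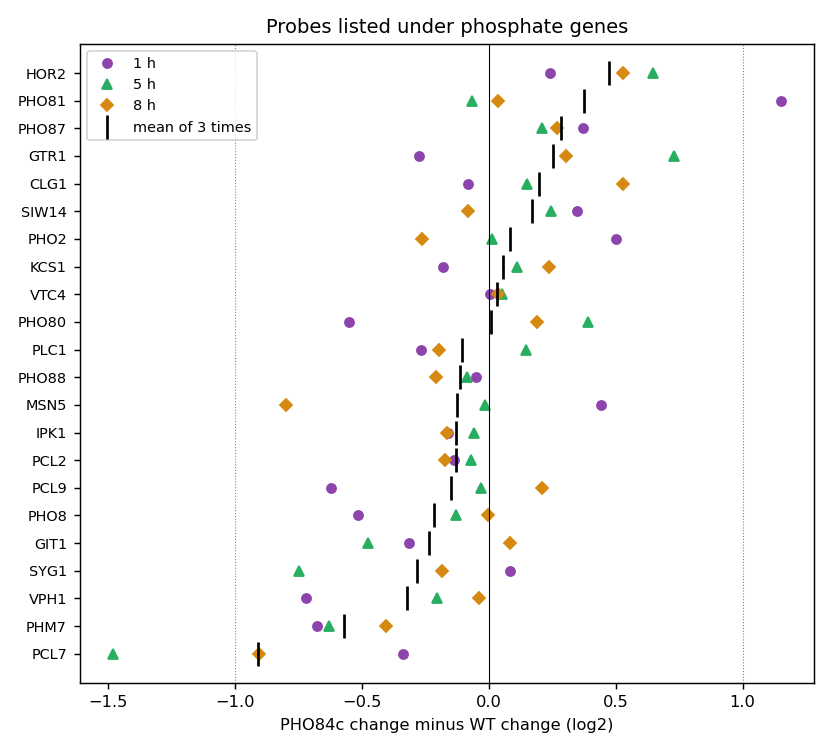
Strain difference (PHO84c change minus WT change, log2, horizontal axis) for the 22 probes listed under phosphate genes, with markers for 1, 5 and 8 h and a bar for their mean. The means lie between -0.91 and 0.47, and the marker for PHO81 at 1 h (1.15) and that for PCL7 at 5 h (-1.48) stand furthest out.

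Of the 21 genes of the PHO regulon, 6 were listed. HOR2, a glycerol phosphatase, had 0.51, 0.47 and 0.09 in PHO84c against 0.26, -0.17 and -0.44 in WT. PHM7, a membrane protein whose level rises on low phosphate, had -0.84, -0.14 and -0.32 in PHO84c against -0.17, 0.49 and 0.09 in WT. HOR2 was above WT and PHM7 below it at every time, by 0.47 ± 0.128 and by -0.57 ± 0.119 (SE, 3 time pairs, limma adjusted p = 0.143 for HOR2 and 0.0977 for PHM7). VTC4, the polyphosphate polymerase of the vacuole, had -0.32, -0.23 and -0.27 in PHO84c against -0.33, -0.28 and -0.31 in WT, so close that the strains overlapped. Its difference was 0.03 ± 0.111 (SE, 3 time pairs, limma adjusted p = 0.906). PHO8, the vacuolar alkaline phosphatase, and GIT1, a transporter of glycerophosphoinositol, differed by -0.22 and -0.24 and did not pass.

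PHO81, the inhibitor of the Pho80 and Pho85 kinase, was the 1 phosphate probe of 22 called at 1 h, where 2.61% of all probes were. It stood at -0.24, -0.17 and 0.02 in PHO84c against -1.39, -0.11 and -0.02 in WT, so a single low WT sample at 1 h made the difference of 1.15. Over the 3 times its difference was 0.37 ± 0.234 (SE, 3 time pairs, limma adjusted p = 0.416), and without the pair at 1 h it was -0.0149. PCL7, a cyclin that pairs with Pho85 in glycogen control, was the 1 called at 5 h, where 0.782% of all probes were, with -0.44, -0.36 and 0.00782 in PHO84c against -0.10, 1.12 and 0.92 in WT. It was lower than WT at all 3 times, and over them the difference of -0.91 ± 0.206 did not pass (SE, 3 time pairs, limma adjusted p = 0.106). At 8 h 0 of the 22 were called, against 0.851% of all probes. Counts of 0 and 1 of 22 at a time are too few to set these probes apart from the rest.

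The kinase's own cyclin, PHO80, had -0.28, 0.31 and 0.31 in PHO84c against 0.27, -0.08 and 0.12 in WT, with overlapping values. PHO2, the partner of Pho4, had 0.90, 0.31 and -0.13 in PHO84c against 0.40, 0.29 and 0.13 in WT, and also overlapped. The low-affinity transporter PHO87 differed by 0.28 (adjusted p = 0.247 in limma's test), and PHO88, a membrane protein linked to phosphate uptake, by -0.12.

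Across all 34 gene lists, those of phosphate included, 469 distinct probes were tested. Of these 3 were called, all lower (GAS4, CCT7 and KCC4), and 0 higher, where 0.307% of all probes were lower and 0.162% higher. In limma's test 1161 of all 6187 probes had an unadjusted p under 0.05. Among the 31 lists with at least 3 members tested, medians lay between -0.16 and 0.16, and 16 were within 0.05 of 0. The share of members that kept one sign was not tested, and over all probes it was 43.9%. Of the 31 lists, the septin, bud neck and polarity list had the highest, 12 of its 16 members, 5 higher and 7 lower, with a median of -0.11. Its members KCC4 and ZDS2 are given above, and HOF1, which acts in cytokinesis, had -0.05, -0.22 and 0.14 in PHO84c against 0.74, 0.59 and 0.59 in WT without passing (-0.68, limma adjusted p = 0.0818).

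For the tricarboxylic acid and glyoxylate cycles, 8 of 11 members were positive, against 3026 of 6187 over all probes, with a median of 0.13 and no call. MLS1, malate synthase, differed by 0.53 and ICL1, isocitrate lyase, by -0.42, so these neighbours in the glyoxylate cycle differed in sign. Iron genes split evenly, 6 positive and 6 negative, with ISA1, an iron-sulfur assembly factor, at -0.70 and FRE4, a reductase, at 0.54. Cytosolic ribosomal proteins had medians of 0.02 (29 of the large subunit) and -0.02 (24 of the small subunit), and general stress genes -0.03 (18 members). No member of any of these lists was called over the 3 times, where 0.469% of all probes were. The lists are too small for that to set them apart from the rest.

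Markers of mating type and of meiosis were read for changes after the shift, as far as the listed names hold. Each value is a change from the strain's own 0 h samples, so a constant difference in cell type would not appear. The markers therefore cannot show whether the strains match in cell type. Of 34 such genes, 10 were listed and tested, and 1 was called, the sporulation gene GAS4, where 0.469% of all probes were. The a-specific genes STE6 and MFA2 differed by 0.16 and -0.17, and the alpha-specific STE3 by 0.17. MFA1, an a-factor gene, had 0.58, 0.46 and 0.10 in PHO84c against -0.60, 0.36 and 0.11 in WT and was called at 1 h (1.17), when 2.61% of all probes were. The haploid-specific RME1 and STE18 differed by -0.22 and -0.13, neither of them called. Of 4 meiosis and sporulation genes listed and tested, GAS4 was the 1 called, and SPS1 and HOP1 differed by 0.32 and -0.18.

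The 23 h samples, which share the 0 h samples with the earlier times, were read beside the 29 called probes without a test, so some likeness is built in. The difference at 23 h had the same sign for 21 of the 29, and for 9 of these it was at least 2-fold, a size that 8.69% of all probes reached at 23 h in either direction. The share of all probes with one sign was not counted at 23 h. Among the 9 are probes 6436, 5186, 15377, 5185, 8360 and 14796, each with a Cy3 pair at 0 h more than 0.5 apart. That uneven reference enters their differences at every time, 23 h included. GAS4 was further apart at 23 h, at -4.78, and KCC4 was at -1.11. SIP3 (-0.06) and CCT7 (0.07) were close together by then, DCC1 stood at 0.62, and RRD2 was lower in PHO84c at 23 h, by -0.86.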

How the data were processed

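RNA was measured on dual-colour arrays, 1 channel per sample. The deposited values were read as log2 ratios to 0 h. How the authors corrected background, normalized and merged scans is not given in the sources used. Log base and reference were inferred: in PHO84c and WT the Cy3 pairs at 0 h averaged 1.0016 and 1.00175 on the linear scale. Tag, protocol and titles give phosphate as 0.5 M, 0.5 mM and 500 microM, and the tag was taken as a slip. There were 0 columns of other series.

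Changes from the mean Cy3 value at 0 h were fitted by lmFit and eBayes (limma 3.58.1, R 4.3.3), with Benjamini-Hochberg adjustment over all probes tested. Probes needed at least 2 time pairs (6014 with 3, 173 with 2). The residual degrees of freedom were 2 for probes with 3 pairs and fewer for those with 2. Of the called probes, 28 had 3 pairs and 1 had 2. Per-time tests used the means of the 10 Cy3 samples. The time pairing comes from the labels. The scripts were tested on simulated data.

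Named probes are listed ones: all called, up to 12 each way by size with at least 0.5 at each time, the 5 largest called each way per time, 3 for the contrast, all phosphate members and up to 3 per other list. Unnamed probes are at most 2 each way, and probe 8743 was added after its values were seen. Members and lists were chosen with earlier results of these data known. No label says that samples came from separate cultures, so the p-values reflect only a spread that may be technical. In the main comparison it is the spread of the strain difference over 1, 5 and 8 h. A real change of that difference with time therefore counts as error there. The number of arrays limits the precision.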

Additional observations from a re-analysis of the deposited data

Results flagged for a closer look

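The strain difference over 1, 5 and 8 h passed limma's test for 6 listed probes, SIP3 (-2.07), GAS4 (-2.04), CCT7 (-1.12), KCC4 (-1.03), RRD2 (1.08) and DCC1 (1.03). With the error of the 0 h pairs alone, the difference at 1 h departed from that at 5 and 8 h for NAT2 (2.55), SYF1 (2.00), HPA3 (1.64), MBP1 (-1.48), SNQ2 (-1.33) and ARO3 (-1.15), the 3 furthest each way. In the 23 h samples, outside the main comparison, probe 8743 stood at 1.10 (PHO84c minus WT), against -1.72 over the earlier times. It is the single one of the 29 called probes with the opposite sign and at least 2-fold at 23 h, and this difference was not tested.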

How the results depend on the processing

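The 29 calls over 1, 5 and 8 h became 10 with the 0 h samples in the fit, 6 with them and the replicate block at 0 h, and 17 without probes whose 0 h pair differed by over 0.5, an alternative chosen after seeing the data. They ranged from 12 (without the pair at 1 h) to 39 (without that at 8 h) when 1 time pair was left out, and 11, 17 and 23 of the 29 were kept without 1, 5 and 8 h. The 9 other settings gave 26 to 42. Of the 29, 4 were called under all 14 alternatives with the 2-fold limit, all lower: GAS4 and 3 unnamed probes. Quantile normalization, which gives all 10 arrays one distribution, gave 0 calls at 1, 5 and 8 h. Before it, the SD over probes was 0.077 to 0.129 in the Cy3 samples at 0 h and 0.325 to 0.464 in the later ones. Why the calls were lost was not tested. Without a fold limit 691 were called at 1 h. The replicate block gave 82 at 5 h. Replicates at 0 h share a number and a scan block number, each in scans of its own strain, and no label says that they are pairs. The time pairing comes from the labels. Leaving out 1 sample at 0 h gave 55 to 184 calls at 1 h, 11 to 86 at 5 h, 0 to 76 at 8 h and 5 to 104 for 1 h against 5 and 8 h, where the lowest values all lacked a PHO84c sample. PHO81 turned to -0.0149 without the pair at 1 h, and was 0.594 without that at 5 h. Over 445 alternatives for 30 probes, 27 lost and 7 gained a call, and 1 turned direction. Most of the 30 were not called in the main comparison and had no call to lose, so 27 of 445 understates the losses. Of 15 alternatives, the 1 without a fold limit included, CCT7 lost its call in 7, and KCC4 and DCC1 in 4 each. RRD2 lost it in 3, SIP3 in 1 and GAS4 in 0. Of 124 alternatives for list medians, 16 moved, by 0.152 at most. The ratios hold no signal over background, so dim probes were not set apart.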

Other observations

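A set of probes with close numbers, those listed as HPA3, SYF1 and ARP9, were all low in the WT sample at 1 h, at -1.995, -0.41 and -0.98 in PHO84c and -2.19, -2.13 and -2.40 in WT. The HPA3 probe was nearly as low in PHO84c, so its low value was not particular to WT. These probes were picked from listed ones after their values were seen, and no values are given for probes numbered between them. Neither their position on the array nor their sequence was compared.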
